A study of Mus musculus with 66 samples.

Results

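Small nucleolar RNAs (snoRNAs) and small Cajal body RNAs (scaRNAs) were followed by RNA sequencing in E14, a line of mouse embryonic stem cells. Members were chosen by name and by measured abundance: a gene was included when its symbol began with Snord, Snora or Scarna plus a number and its expected counts, the read numbers per gene estimated by the authors' tool, summed to 70 or more over 7 libraries. Of 150 such genes among the 55487 genes listed, 84 had a count above 0 and 52 reached the minimum: 14 of 99 box C/D genes, 33 of 42 box H/ACA genes and 5 of 9 Cajal body genes. The abundance that chose them is described here without a test. GDel1 and GDel2 are the labels' names for sets of 2 libraries each from cells whose genotype is given as a Praf2 G4 deletion, G4 standing for G-quadruplex, a folded form of guanine-rich nucleic acid. WT is the wildtype, with 3 libraries. No group was treated, and the medium of all held serum, LIF, a GSK inhibitor and a MEK inhibitor. Whether each deletion name stands for 1 clone, and whether replicates were separate cultures, is left unsaid by the labels, so p-values measure the spread between these libraries.

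Box C/D snoRNAs guide the methyltransferase fibrillarin to ribosomal RNA, where it methylates the ribose. Box H/ACA snoRNAs guide the pseudouridine synthase dyskerin, and a few members of both classes act in the cutting of the ribosomal precursor instead of its modification. Cajal body RNAs carry one or both kinds of box and guide the same modifications on the RNAs of the spliceosome. In mammals most of these RNAs are cut from introns of host genes, many of which encode ribosomal proteins or are noncoding. Stem cells divide fast and make many ribosomes, for which this machinery is needed. The roles given for single members are those known for their human counterparts.

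Libraries held 13538039 and 18762704 expected counts in GDel1, 12316853 and 14434134 in GDel2, and 13360009, 15780833 and 18549005 in WT. Praf2, the gene at the deletion, was at 10.1 and 9.26 CPM (counts scaled to the TMM library size, edgeR's usual CPM) in GDel1, 13.1 and 14.1 CPM in GDel2, and 27.5, 28.8 and 30.6 CPM in WT, lower in every deletion library than in every WT library. All 6 stem cell markers examined were expressed. Among them Pou5f1 was at 436 and 493 CPM in GDel1, 402 and 386 CPM in GDel2, and 395, 381 and 404 CPM in WT. Not all 6 were steady: by edgeR at an adjusted p under 0.05, 2 rose and 2 fell in GDel2 against WT. In that comparison 17.4% of all genes were higher and 15.6% lower. In GDel2 against GDel1 2 rose and 1 fell, beside 14.8% and 12.8% of all genes, and 0 passed in GDel1 against WT. Of 4 fibroblast feeder markers Col3a1 was at 0 in all 7 libraries, and the highest value of the other three was 2.53 CPM, for Thy1 in GDel2 replicate 2. GDel1 replicate 2 and WT replicate 1 stood apart from the other libraries for snoRNAs, and results are also given without them where they move.

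The deposited lengths imply a mean sequenced fragment of 152 to 160 bases per library, longer than most of these RNAs. Listed lengths had a median of 101.5 bases for the 14 C/D members (70 to 238), 133 bases for the 33 H/ACA members (121 to 205) and 275 bases for the 5 Cajal body members (131 to 414). For 7 C/D members (Snord16a, Snord104, Snord83b, Snord100, Snord32a, Snord35a and Snord33) the authors' effective length was 0 in all 7 libraries, so their deposited TPM was 0 although reads were counted. Counts are therefore the measure used for every member, and levels of different genes are compared per 100 bases of listed length. The order of genes depends on this scale. In WT replicate 2 the authors' TPM was 8825 for Snord13 and 7245 for Snora23, whereas their CPM was 18.3 and 463. The listed and RefSeq lengths of some genes differ, for example 325 against 71 bases for Scarna10 and 414 against 61 bases for Scarna2.

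The members nearest the minimum were Snord33 (summed expected count 75.7), Snora34 (76.6) and Snora69 (77), and the nearest genes below it were Snord49a (54), Snora47 (47) and Snord49b (46). Without GDel1 replicate 2 the sum of 6 members would be under 70: Snord22, Snord33, Snord35a, Snora34, Snora69 and Snora70. These were admitted through that library. Their sums without it were 18.4 (Snord22), 26.6 (Snora34), 38.9 (Snord33), 51.0 (Snora69), 62.0 (Snord35a) and 68.2 (Snora70). The lower this sum, the higher the member had to be in that library to enter. Snord33 and Snora34 failed the filter on low counts used for the tests, which left 50 members. These 2 and Scarna13 share bases with an annotated microRNA hairpin, so a read from the shared stretch can be assigned to either gene. The stretches are shown from RefSeq (build GRCm38.p6), in the direction of the hairpin.
Snord33 and Mir5121, chr7:45126918-45126945, minus strand: agcuugUGAUGAgacaucucccacucau
Scarna13 and Mir3069, chr12:105031077-105031141, minus strand: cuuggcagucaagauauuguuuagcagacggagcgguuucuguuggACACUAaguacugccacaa
Snora34 and Mir1291, chr15:98519762-98519834, minus strand: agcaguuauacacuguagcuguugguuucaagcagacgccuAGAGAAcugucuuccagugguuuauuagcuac
Capitals mark UGAUGA, the usual C box, in the first stretch and a match to ANANNA, the H box, in the other two. Only the strand shown was searched. Of 1005 RefSeq hairpins of sufficient length, 0.796% hold UGAUGA in their first 28 bases, while 51.4% of 780 hold ANANNA in their first 65 bases and 54.6% of 615 in their first 73, so the H box match is common. Almost no reads were given to the hairpin genes, with at most 0.94 expected counts in a library for Mir5121, 1.85 for Mir1291 and 0 for Mir3069.

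Of the counts of members, H/ACA members took most and C/D members took few. These are shares of reads, and the part that RNA length plays in them was not tested. C/D members held 0.0278 ± 0.0109% of all counts in GDel1 (mean ± SD, n = 2), 0.0141 ± 0.000382% in GDel2 (n = 2) and 0.0142 ± 0.00299% in WT (n = 3). H/ACA members held 0.189 ± 0.0259% in GDel1, 0.143 ± 0.00354% in GDel2 and 0.139 ± 0.0128% in WT. Cajal body members held 0.0288% in both GDel1 libraries, 0.0211% and 0.0231% in GDel2, and 0.0194%, 0.0194% and 0.0223% in WT. Both GDel1 libraries were above every GDel2 and WT library in each of the 3 classes. For each 100 H/ACA counts there were 9.69 and 20.7 C/D counts in the GDel1 libraries, 9.52 and 10.2 in GDel2, and 8.51, 11.8 and 10.2 in WT, so that GDel1 replicate 2 held the most C/D counts relative to H/ACA counts.

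Snora23, which guides pseudouridylation of the large ribosomal RNA and lies in an intron of the importin gene Ipo7 (bases 110046364 to 110046547 of chromosome 7), had the highest level per length of all 52, 269 CPM per 100 bases over the 7 libraries. Its level was 823 and 238 CPM in GDel1, 448 and 527 CPM in GDel2, and 478, 463 and 487 CPM in WT. WT replicates lay within 1.05-fold of each other, while the GDel1 replicates lay 3.46-fold apart, one above and the other below all 5 other libraries. Snora73a and Snora73b followed with 152 and 125 CPM per 100 bases, then Snora81 with 116 and Snora74a with 69.5. The paired Snora73 genes lie in Snhg3 and act in the cutting of the precursor of the small ribosomal RNA, as does Snora74a in ribosomal precursor processing. The 5 together made up 89.3% to 92.1% of H/ACA counts in every library. Their listed lengths were 178 to 205 bases, against a median of 133 bases for the class. The other 28 H/ACA members had means from 0.632 CPM upward, with a median over the class of 4.07 CPM.

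Among C/D members Snord17 was the most abundant per length at 25.2 CPM per 100 bases. Snord17, a guide for methylation of the large ribosomal RNA in the sorting nexin gene Snx5, was at 70.8 and 142 CPM in GDel1, 43.0 and 42.9 CPM in GDel2, and 38.1, 39.2 and 44.0 CPM in WT. Both GDel1 libraries exceeded all 5 others, by unequal amounts. Snord15a (24.4 CPM per 100 bases), from the ribosomal protein gene Rps3, was at 43.7 and 74.0 CPM in GDel1, 30.9 and 23.2 CPM in GDel2, and 23.0, 29.3 and 28.5 CPM in WT. Snord118 (19.1 CPM per 100 bases), the U8 RNA needed for maturation of the large-subunit RNAs, was at 30.3 and 52.8 CPM in GDel1, 20.4 and 20.3 CPM in GDel2, and 11.7, 24.3 and 20.4 CPM in WT. Snord16a (19.4 CPM per 100 bases), of Rpl4, and Snord13 (14.6), which lies in no annotated host and takes part in acetylation of the small ribosomal RNA, did not share this order. Snord16a ranged from 11.4 CPM in GDel2 replicate 1 to 32.6 CPM in GDel1 replicate 1, and Snord13 from 7.29 CPM in WT replicate 1 to 24.1 CPM in GDel2 replicate 2, with groups that overlapped.

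The Cajal body members hold both abundant and rare RNAs. Scarna10, in Ncapd2, was at 159 and 115 CPM in GDel1, 106 and 133 CPM in GDel2, and 98.6, 89.8 and 98.7 CPM in WT. Scarna2, which lies in no annotated host, was at 108 and 118 CPM in GDel1, 74.2 and 81.9 CPM in GDel2, and 66.2, 68.2 and 88.2 CPM in WT. Scarna6, in the autophagy gene Atg16l1, was at 22.1 and 28.1 CPM in GDel1, 12.5 and 12.9 CPM in GDel2, and 11.9, 14.7 and 13.6 CPM in WT. For these RNAs, guides for modification of spliceosomal RNAs, GDel1 was above WT in each library, and for Scarna10 GDel2 was too. Scarna13 was at 23.6 and 20.2 CPM in GDel1, 11.4 and 12.7 CPM in GDel2, and 13.4, 15.0 and 15.9 CPM in WT, so that GDel1 was above and GDel2 below every WT library. Scarna8 averaged 1.03 CPM, its GDel1 replicates lay 3.25-fold apart and its groups overlapped.

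**Figure D1:**
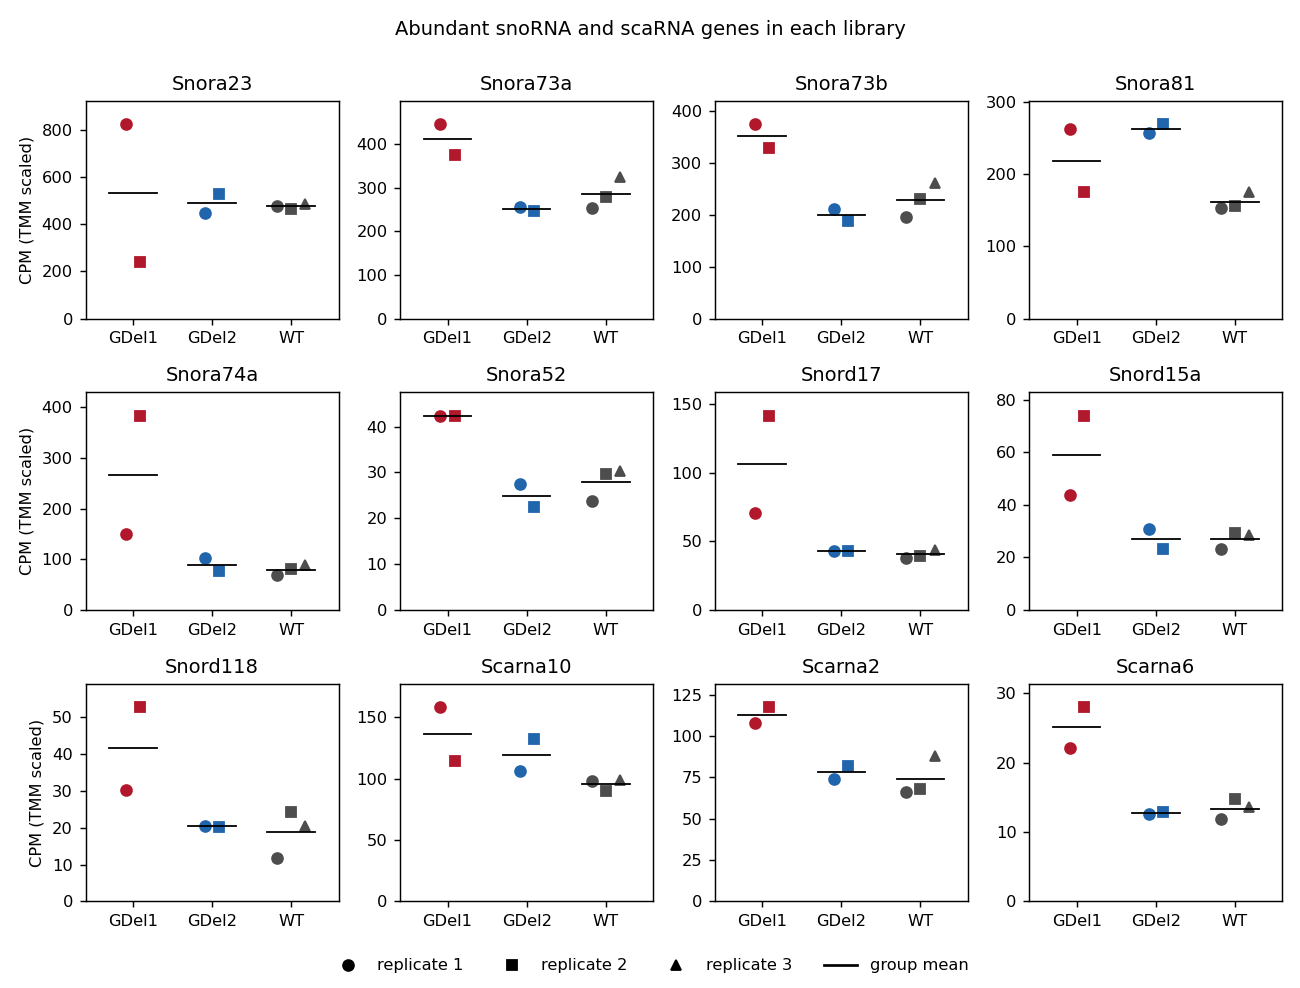
CPM of 12 abundant members (y axis, from 0) in each library of GDel1, GDel2 and WT (x axis); points are libraries, with shapes for replicate numbers, and lines are group means. Both GDel1 libraries lie above all WT libraries except for Snora23 (823 and 238 CPM in GDel1), and GDel2 lies above WT for Snora81 and Scarna10.

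GDel1 set against WT asks whether the deletion goes with a change in these RNAs. Members leaned upward in GDel1: 43 of the 50 tested had a log2 fold change above 0, with a median of 0.51, against a median of 0.00 over the 15421 genes tested. The H/ACA class leaned in 1 direction, with 32 of 32 members above 0 (median 0.49), while the C/D class was split with 7 of 13 above 0 (median 0.19) and the Cajal body class had 4 of 5 (median 0.57). Of the 50, 4 (Snord22, Snord35a, Snora69 and Snora70) were admitted through GDel1 replicate 2, so their values there are not independent of the choice of members. Without them 39 of 46 were above 0 with a median of 0.46, and 30 of 30 H/ACA members. In bulk RNA, more cells of a kind and more RNA per cell cannot be told apart. The test across all genes called 1 member, against 0.376% of all genes called in either direction, 0.162% called higher and 0.214% called lower. It was Scarna6, 1.88-fold higher in GDel1 (log2 fold change 0.91 ± 0.14 SE, adjusted p = 0.0463), and the call was lost when any 1 of the 3 WT or 2 GDel2 libraries was left out (adjusted p = 0.0565 to 0.211). In 21 of 50 members both GDel1 libraries were above all WT libraries, against 20.9% of all genes, and in 0 of 50 both were below, against 22.6% of all genes. The 21 include Snord22, Snord35a and Snora69, which were admitted through GDel1 replicate 2.

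Further members stopped just short of the threshold. Snora9 was 2.40-fold higher in GDel1 (1.26 ± 0.26, adjusted p = 0.0550) without overlap. Snora73b was 1.53-fold higher in GDel1 (0.62 ± 0.13, adjusted p = 0.0550) and Snora73a 1.44-fold higher (0.52 ± 0.12, adjusted p = 0.0604). Each lay at 328 to 446 CPM in GDel1, above the 197 to 324 CPM of both genes in WT. Reads were shared between features for both Snora73 genes in all 7 libraries, so their separate levels are uncertain. Snord17 (1.40 ± 0.26), Snora52 (0.60 ± 0.13), Scarna2 (0.60 ± 0.13), Scarna13 (0.57 ± 0.12) and Snord15a (1.13 ± 0.23) had adjusted p between 0.0562 and 0.0573, and no overlap with WT. Few genes of any kind passed in this comparison, 58 of 15421, and the number moved widely with the method: DESeq2 called 13 members, all higher, and 952 genes, and the fit without a filter on low counts called 22 members, all higher, and 2357 genes.

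The 2 GDel1 libraries reached their levels in different ways. In GDel1 replicate 1 the members shifted together: 49 of 50 were above the WT mean, the median log2 ratio to it was 0.60 with an interquartile range of 0.28, and 0 were 2-fold above it. In GDel1 replicate 2 they spread apart: 31 of 50 were above the WT mean, the median was 0.36 with an interquartile range of 1.23, and 12 were at least 2-fold above. Without the 4 members admitted through it, the median of replicate 2 was 0.21 with an interquartile range of 1.24, and 11 of 46 were at least 2-fold above. Replicate 2 was at least 1.5 times replicate 1 for 13 members, and replicate 1 was at least 1.5 times replicate 2 for 18 (11 and 18 of 46 without those 4 members). Both classes held both kinds, with 5 and 6 of 13 C/D members and 8 and 11 of 32 H/ACA members. Over the 50 members the ratio of the replicates had a Spearman rho of 0.26 with listed length and of -0.07 with mean CPM, given as a description of members that share the same libraries. The mitochondrially encoded share of counts was 9.91% in GDel1 replicate 1 and 4.83% in replicate 2, 6.19% and 9.60% in GDel2, and 6.89%, 6.30% and 6.30% in WT; its part in the difference was not tested.

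Snord22, which lies in the noncoding host gene Snhg1 and is needed for maturation of the small ribosomal RNA in frog oocytes, was the extreme of this spread. Its expected counts were 4.87 and 287 in GDel1, 9.14 and 3.58 in GDel2, and 0, 0 and 0.79 in WT. All 4 deletion libraries were above the WT libraries, but 94.0% of all its counts came from GDel1 replicate 2, through which it entered the set. From rounded counts the ratio to WT was 450 in GDel1 (95% interval 80.2 to 17850), 19.6 in GDel1 replicate 1 alone (2.20 to 929) and 23.9 in GDel2 (3.60 to 1017), where the intervals cover counting error only and rest on 1 count in WT. Its host Snhg1 was 0.43 ± 0.11 higher on the log2 scale in GDel1 (adjusted p = 0.0702) and 0.13 ± 0.11 higher in GDel2 (adjusted p = 0.429).

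Members of 1 host parted in the same way in GDel1 replicate 2. Rpl13a, a ribosomal protein gene, holds 3 C/D members. Snord33 was at 0.644 and 1.93 CPM in GDel1, Snord35a at 1.21 and 1.30 CPM, and Snord32a at 1.61 and 0.833 CPM, giving replicate 2 over replicate 1 ratios of 2.99, 1.08 and 0.517. Snord33 and Snord35a were admitted through replicate 2, with summed counts of 38.9 and 62.0 without it. Their higher ratios are therefore not independent of the choice of members. In Snhg12, Snora61 was at 4.43 and 8.80 CPM in GDel1, while Snora44 was at 16.2 and 11.6 CPM and Snora16a at 2.98 and 2.65 CPM. In Rps3, by contrast, Snord15a and Snord15b were both higher in replicate 2, by 1.69 and 2.51 times. These are few reads for the rarer members, and members of a host share its transcript, so they are not replicates of each other.

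**Figure D2:**
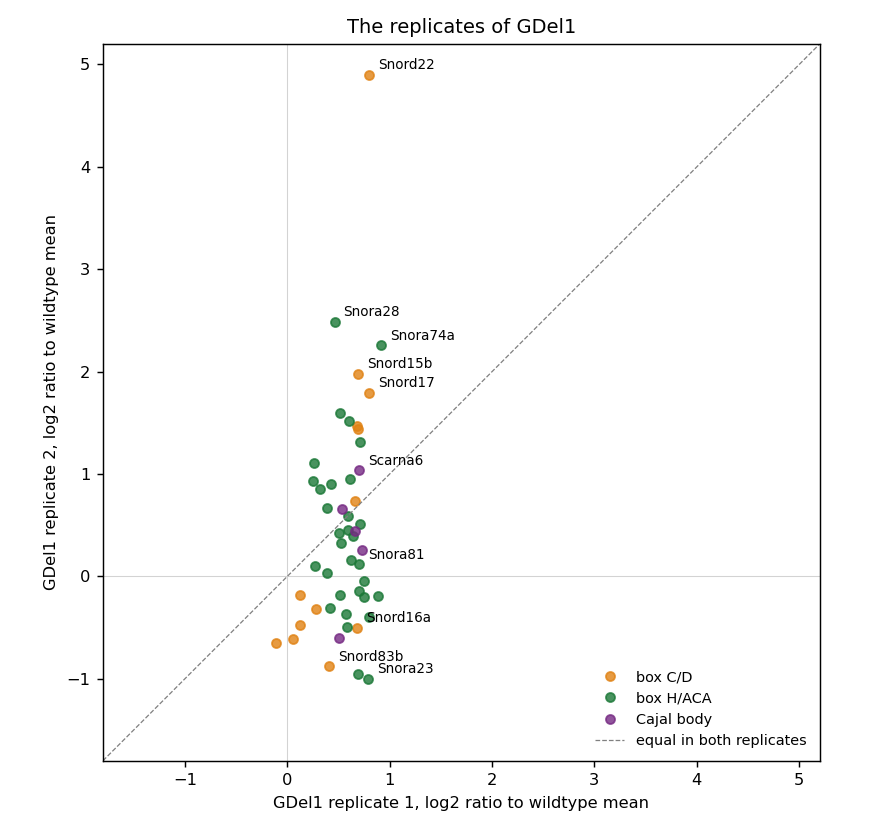
Log2 ratio of each tested member to the WT mean (after adding 0.5 CPM) in GDel1 replicate 1 (x axis) and replicate 2 (y axis), coloured by class, with a dashed line where both are equal. Replicate 1 values gather around a median of 0.60 while replicate 2 values spread with an interquartile range of 1.23 and reach their highest in Snord22.

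WT replicate 1 was low for snoRNAs. It was the lowest of the 7 libraries for 28 of 50 members, against 12.5% of all genes, and its median log2 ratio to the WT mean was -0.44, against 0.12 for both other WT libraries. The C/D members had the lowest ratios (median -0.54), then the H/ACA members (-0.42) and the Cajal body members (-0.16), while the median over all genes was 0.00. Snora3 was at 0.515 CPM in this library, against 2.97 and 3.36 CPM in the other WT libraries. Without WT replicate 1 the median log2 fold change of members in GDel1 against WT was 0.37 and no member was called; without both that library and GDel1 replicate 2 it was 0.47 with no member called.

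**Figure D3:**
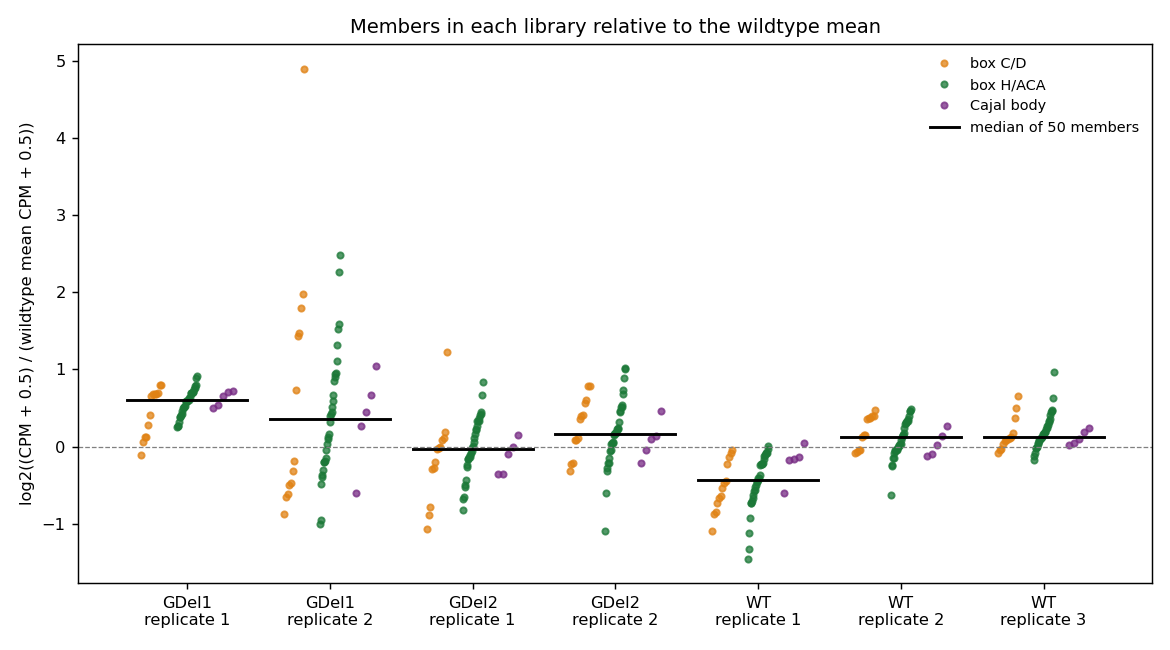
Log2 ratio of each of the 50 tested members to the WT mean (y axis, after adding 0.5 CPM) in each library (x axis), coloured by class, with the median as a black line. The medians are 0.60 and 0.36 in GDel1, -0.03 and 0.17 in GDel2, and -0.44, 0.12 and 0.12 in WT.

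GDel2 set against WT asks the same of the second set of libraries. Here the members as a class lay near WT, although 33.1% of all genes passed the threshold.
The median log2 fold change of members was 0.08 (0.09 for C/D, 0.13 for H/ACA and -0.07 for Cajal body members), and 31 of 50 were above 0. One member passed, against 17.4% of all genes called higher and 15.6% called lower. It was Snora81, a guide for pseudouridylation of the large ribosomal RNA that lies in the translation factor gene Eif4a2. Its level was 256 and 269 CPM in GDel2, against 153, 156 and 175 CPM in WT, and the groups did not overlap (1.63-fold higher, 0.70 ± 0.15, adjusted p = 0.00898). The call was lost without GDel2 replicate 2 (0.67, adjusted p = 0.0721). In GDel1 Snora81 was at 262 and 176 CPM, of which the second stood just above the highest WT library (1.36-fold, 0.44 ± 0.15, adjusted p = 0.133). Eif4a2 itself differed from WT by 0.05 ± 0.08 in GDel2 (adjusted p = 0.671). Part of the Snora81 reads were shared with other features in all 7 libraries.

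The precision for single members was lower than for other genes. Their median SE was 0.39 in this comparison, against 0.16 over all genes tested. A shift of a typical member by less than 2-fold could therefore go undetected. The SE comes from 1 fit of all 3 groups, so the spread between the GDel1 replicates enters it. Snora23, at 448 and 527 CPM in GDel2 and 463 to 487 CPM in WT, had an SE of 0.49. All libraries of GDel2 were above WT for 8 members and below for 3, against 32.2% and 31% of all genes. The sign of the median was not stable: it was -0.09 without WT replicate 1 and -0.08 without GDel2 replicate 2. In GDel2 the genes of chromosomes 6 and 8 had medians of 0.51 and 0.44 relative to WT. The members there had log2 fold changes of 0.32 (Scarna10) and 0.53 (Snora7a) on chromosome 6 and of 0.45 (Snord13) and 0.15 (Snora68) on chromosome 8, and none passed the threshold.

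**Figure D4:**
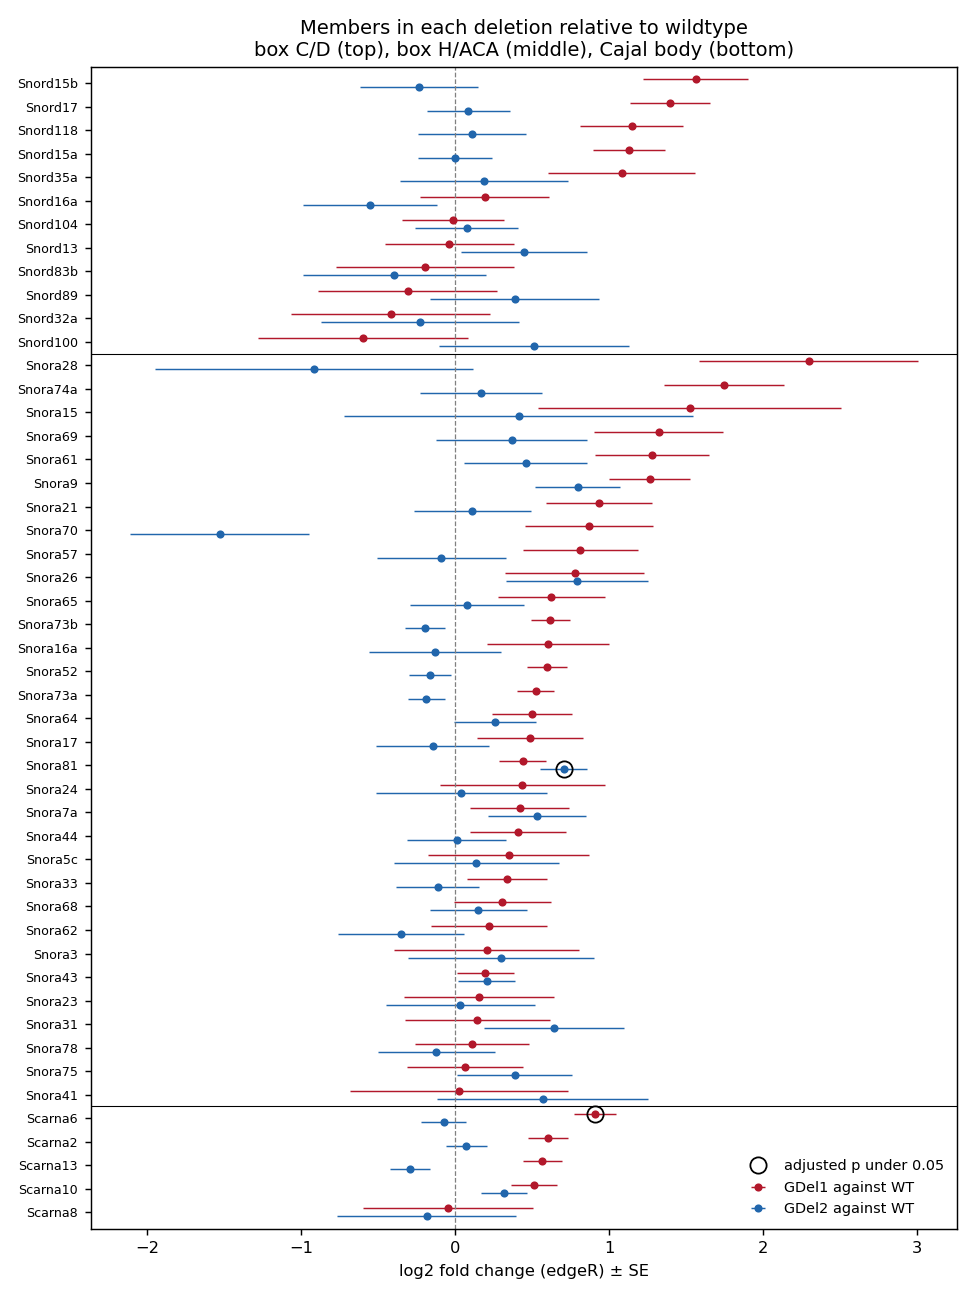
Log2 fold change from edgeR with its SE (x axis) of 49 tested members (rows, by class) in GDel1 against WT (red) and GDel2 against WT (blue); circles mark an adjusted p under 0.05, and Snord22 is left out because its WT counts are near 0. The red points lie mostly right of 0 (median 0.51 over 50 members) and the blue points around it (median 0.08).

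The deletions were also set against each other, since the labels give them 1 genotype. Members were lower in GDel2 than in GDel1: 12 of 50 fell and 0 rose, against 12.8% of all genes called lower and 14.8% called higher, and the median was -0.50 against -0.01 over all genes. The 12 were 3 C/D members (Snord17, Snord15a and Snord15b), 6 H/ACA members (Snora73a, Snora73b, Snora52, Snora74a, Snora28 and Snora70) and 3 Cajal body members (Scarna2, Scarna6 and Scarna13). Of the 12, Snora70 was admitted through GDel1 replicate 2. Without the tested members so admitted, 11 of 46 fell and 0 rose, with a median of -0.42. GDel1 is one side of both this comparison and that with WT, so the same libraries raise the one and lower the other. In 24 of 50 members both GDel2 libraries were below both GDel1 libraries, against 29.1% of all genes, and in 1 both were above, against 29.9%. The 24 include Snord35a, Snora69 and Snora70, which were admitted through GDel1 replicate 2.

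The most precise of these differences were in long or abundant members. Scarna6 was at 12.5 and 12.9 CPM in GDel2, against 22.1 and 28.1 CPM in GDel1, which is 1.98-fold lower (-0.98 ± 0.16, adjusted p = 0.00250). Scarna13 was at 11.4 and 12.7 CPM in GDel2 against 23.6 and 20.2 CPM in GDel1 (1.81-fold lower, -0.86 ± 0.14, adjusted p = 0.00284). In both the replicates of each deletion lay close together relative to the gap. Snora73b was at 212 and 189 CPM in GDel2 against 375 and 328 CPM in GDel1 (-0.81 ± 0.14, adjusted p = 0.00367), and Snora73a at 255 and 247 CPM against 446 and 376 CPM (-0.71 ± 0.13, adjusted p = 0.00505). Snora52, which guides pseudouridylation of the large ribosomal RNA and lies in Rplp2, was at 27.5 and 22.4 CPM in GDel2 against 42.4 and 42.2 CPM in GDel1 (-0.76 ± 0.15, adjusted p = 0.00591). Scarna2 differed by -0.53 ± 0.15 (adjusted p = 0.0258), a call lost without GDel1 replicate 2 (adjusted p = 0.0784), GDel2 replicate 1 (0.1325) or GDel2 replicate 2 (0.0668).

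The larger fold changes belonged mostly to members whose GDel1 replicates lay far apart. Snora74a was at 103 and 76.5 CPM in GDel2 against 151 and 384 CPM in GDel1 (-1.58 ± 0.44, adjusted p = 0.0458). Snord15b was at 5.44 and 5.35 CPM in GDel2 against 10.5 and 26.5 CPM in GDel1 (-1.79 ± 0.40, adjusted p = 0.0152), and Snord17 and Snord15a differed by -1.31 ± 0.29 and -1.13 ± 0.26 (adjusted p = 0.0177 and 0.0178). The groups did not overlap in any of these. Without GDel1 replicate 2, which leaves GDel1 replicate 1 alone, all 4 differences were smaller. They were -0.75 for Snora74a, -0.97 for Snord15b, -0.72 for Snord17 and -0.70 for Snord15a. Snora28, in Eif5, was at 0.552 and 0.434 CPM in GDel2 against 1.45 and 7.44 CPM in GDel1 (-3.21 ± 0.93, adjusted p = 0.0436), and without GDel1 replicate 2 the difference was -1.55 and no longer passed (adjusted p = 0.148), nor did it without either GDel2 library (adjusted p = 0.146 and 0.185) or without WT replicate 2 or 3 (0.0509 and 0.0708). Snora70, in Rpl10, was at 0.473 and 0.145 CPM in GDel2 against 1.21 and 1.98 CPM in GDel1 (-2.40 ± 0.57, adjusted p = 0.0152). It was admitted through GDel1 replicate 2, its highest library, so this call is not independent of the choice of members. Without that library, which leaves GDel1 replicate 1 alone, the difference was -1.97. Leaving out GDel2 replicate 2 gave -1.76. With GDel1 replicate 2 left out, 13 members were lower, of which 9 were among the 12. With GDel2 replicate 1 or replicate 2 left out, 7 and 5 of the 12 were called.

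With GDel1 and GDel2 taken as 1 group of 4, as the shared genotype label gives, 0 of 50 members and 0 of 15421 genes passed. At an unadjusted p under 0.05 there were 4 members and 2930 genes, and DESeq2 called 2 members and 855 genes. The median of members was 0.29 against 0.04 over all genes, 45 of 50 were above 0, and 4 members were above WT in every deletion library, against 9.73% of all genes. Among these 4 is Snord22, which was admitted through GDel1 replicate 2. The members of lowest p were Snora9 (1.05 ± 0.28, adjusted p = 0.151), Snora81 (0.58 ± 0.16, adjusted p = 0.154) and Snord22 (adjusted p = 0.186). Snora9, for which the RefSeq table gave no position, was at 3.06 and 4.89 CPM in GDel1, 3.39 and 2.46 CPM in GDel2, and 1.55, 1.73 and 1.73 CPM in WT. Its groups did not overlap in either deletion, and its own difference between the deletions was -0.47 ± 0.28 (adjusted p = 0.253).

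A host was found by position for 45 of 52 members, in 36 genes, 33 of which were tested. The RefSeq table used gives no strand for genes and no source used here gives the strand setting of the counting, so reads from unspliced host RNA or from an antisense transcript cannot be told apart from reads of the member. Some ribosomal protein hosts lay above WT in GDel1 without passing, for example Rps12 (0.60 ± 0.11, adjusted p = 0.0529), Rps3 (0.45 ± 0.09, adjusted p = 0.0529) and Rpl27a (0.59 ± 0.12, adjusted p = 0.0533). Over the 33 hosts 0 passed in GDel1 against WT (median 0.31), 6 rose and 1 fell in GDel2 against WT (median 0.02), and 1 rose and 10 fell in GDel2 against GDel1 (median -0.16). All genes called were 17.4% higher and 15.6% lower in GDel2 against WT, and 14.8% higher and 12.8% lower in GDel2 against GDel1. The count in GDel1 against WT depended on the method, with 15 hosts higher by DESeq2 and 17 higher and 1 lower without a filter on low counts. In GDel2 against GDel1 the hosts called were 3 without GDel2 replicate 2 and 20 without GDel1 replicate 1.

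Fold changes of members and of their hosts showed little rank correlation. Over 39 members with a tested host, the Spearman rho between their log2 fold changes was -0.05 in GDel1 against WT, 0.18 in GDel2 against WT and 0.05 in GDel2 against GDel1, as a description of pairs that share libraries. The member was above its host in 26 of the 39 in GDel1 against WT and in 20 in GDel2 against WT. In GDel2 against GDel1 it was above its host in 12 of 39. Snora73a and Snora73b were above WT in GDel1 (0.52 and 0.62), while their host Snhg3 was at 46.5 and 37.2 CPM in GDel1 against 59.8, 50.04 and 55.1 CPM in WT (-0.40 ± 0.12, adjusted p = 0.0972). Scarna6 rose in GDel1 by 0.91, and its host Atg16l1 differed by 0.05 ± 0.08 (adjusted p = 0.772). Snord17 was 1.31 lower in GDel2 than in GDel1 on the log2 scale, and its host Snx5 differed by 0.04 ± 0.09 (adjusted p = 0.790). Some hosts that passed in GDel2 against GDel1 had a sign opposite to a member's, which did not pass. Tbrg4, a regulator of mitochondrial RNA, rose by 0.78 ± 0.10 (adjusted p = 0.00103) beside -0.21 for Snora5c. Rps12 fell by 0.59 ± 0.12 (adjusted p = 0.00677) beside 1.11 for Snord100, while its other member, Snora33, shared its sign at -0.45.

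**Figure D5:**
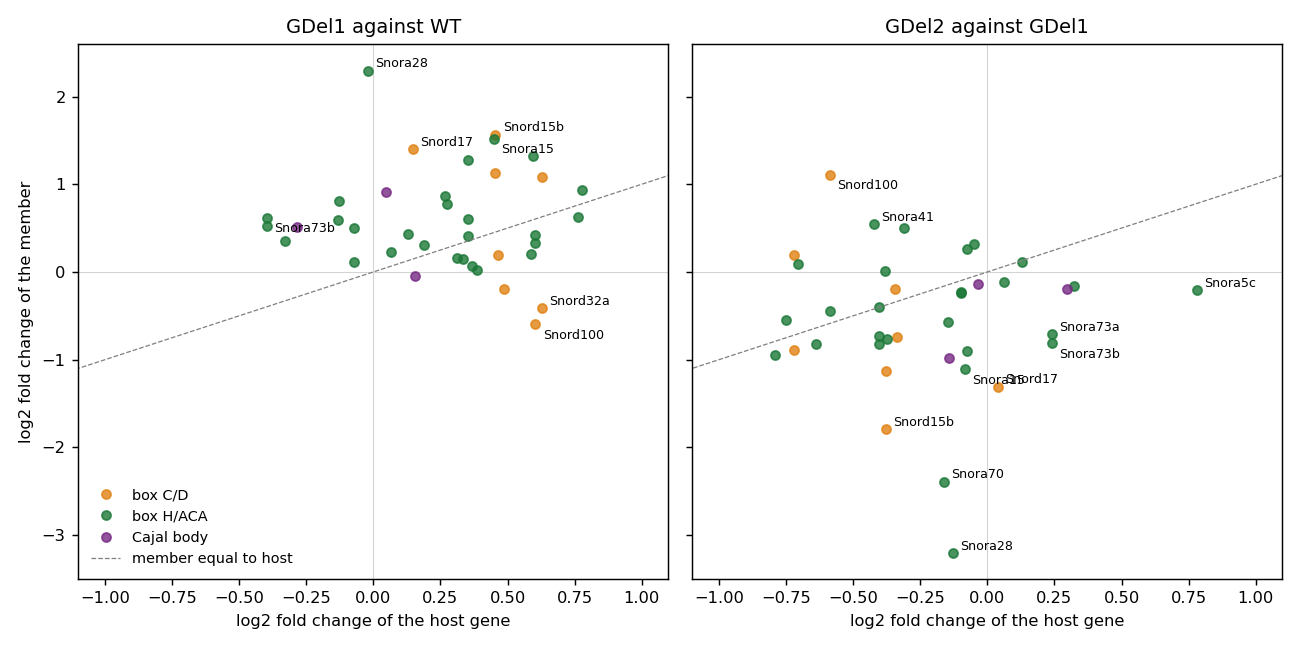
Log2 fold change of each member (y axis) against that of its host gene (x axis) in GDel1 against WT (left) and GDel2 against GDel1 (right), coloured by class, with a dashed line where both are equal; the axes have different scales and Snord22 is left out. Spearman rho over the 39 members with a tested host, Snord22 included, was -0.05 on the left and 0.05 on the right.

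Many host genes of snoRNAs start transcription at a cytosine within a run of pyrimidines, the terminal oligopyrimidine motif of genes of the translation machinery. The windows of 20 bases before and 10 bases from the start site (RefSeq, GRCm38.p6) are shown for the 5 hosts with 5 or more C or T in a row from the start base, with the whole run in the window in capitals.
Ipo7 (Snora23), chr7:110018295-110018324, plus strand: gggccttggcgCTTCTCTTTCCTTTCgcgc
Rpl27a (Snora3), chr7:109519175-109519204, plus strand: cgcgagacttcgtgagCTCCTCCCTTTTCC
Rplp2 (Snora52), chr7:141447631-141447660, plus strand: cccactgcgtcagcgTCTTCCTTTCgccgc
Snhg12 (Snora44, Snora61, Snora16a), chr4:132308658-132308687, plus strand: gtgcaggccgttctcagTCCTTTCTCgctt
Snhg7 (Snora43, Snora17), chr2:26640235-26640264, minus strand: gtggcgtggagatgctcggCCTCTCggcag
These were 5 of the 31 hosts with a start site in the table (16.1%), against 5.28% of 27025 genes, searched on the gene's own strand, with the start that gave the longest run where a gene had several. A window shows only the annotated start, and the absence of a run there says nothing about the starts used. The members of these hosts had log2 fold changes from 0.15 (Snora23) to 1.28 (Snora61) in GDel1 against WT, and spanned -0.82 (Snora61) to 0.09 (Snora3) in GDel2 against GDel1.

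The genes of the proteins that bind and process these RNAs are set here against WT in GDel2, where 17.4% of all genes were called higher and 15.6% lower. Of the 4 core proteins of box C/D particles, Nop56, Nop58 and Snu13 rose in GDel2 against WT. Nop56 was at 479 and 474 CPM in GDel2 against 355, 377 and 360 CPM in WT (0.39 ± 0.08, adjusted p = 0.00618), Nop58 differed by 0.33 ± 0.09 (adjusted p = 0.0203) and Snu13 by 0.31 ± 0.08 (adjusted p = 0.0207). Fbl, the methyltransferase fibrillarin, was at 118 and 125 CPM in GDel2 against 137, 132 and 139 CPM in WT (-0.16 ± 0.08, adjusted p = 0.157) and fell in GDel2 against GDel1 (-0.39 ± 0.09, adjusted p = 0.0120). Of the 4 core proteins of box H/ACA particles Nhp2 rose in GDel2, with 125 and 129 CPM against 73.7, 79.5 and 78.2 CPM in WT (0.72 ± 0.10, adjusted p = 8.37e-04), and the pseudouridine synthase gene Dkc1 differed by 0.05 ± 0.09 (adjusted p = 0.723). Nop10 (0.28 ± 0.10, adjusted p = 0.0569) and Gar1 (0.05 ± 0.12, adjusted p = 0.782) did not pass. In GDel1 against WT 0 of the 8 passed, the nearest being Nhp2 (0.53 ± 0.10, adjusted p = 0.0529).

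Of the 28 factors tested, 13 rose and 3 fell in GDel2 against WT, beside 17.4% of all genes higher and 15.6% lower. All 4 on chromosomes 6 and 8 (Ruvbl1, Shq1, Naf1 and Tent4b) rose, where the median over all genes was 0.51 and 0.44, and on the other chromosomes 9 rose and 3 fell of 24. The part of the chromosome shift in these rises was not tested. The number called was 5 with the replicate block and 6 without GDel2 replicate 2. Of 9 assembly factors 4 rose and 1 fell against WT. Naf1, which loads H/ACA RNAs before Gar1 replaces it, was at 118 and 107 CPM in GDel2 against 69.3, 63.2 and 65.9 CPM in WT (0.76 ± 0.09, adjusted p = 3.22e-04), and the dyskerin chaperone Shq1 (0.67 ± 0.09, adjusted p = 8.02e-04) rose as well. The others were the ATPase Ruvbl1 (0.88 ± 0.13, adjusted p = 0.00104) and Znhit6 (0.40 ± 0.10, adjusted p = 0.0169), while Pih1d1 of the same assembly machinery fell (-0.58 ± 0.15, adjusted p = 0.0167). Of 7 trimming and decay factors 5 rose and 1 fell, among them Tent4b, the polymerase that tags RNA ends for trimming, at 136 and 139 CPM in GDel2 against 78.9, 80.0 and 73.2 CPM in WT (0.83 ± 0.09, adjusted p = 3.31e-04). The exonuclease Xrn2 fell (-0.25 ± 0.08, adjusted p = 0.0412). Of 4 Cajal body and cap factors Wrap53, which takes scaRNAs to Cajal bodies, fell (-0.44 ± 0.11, adjusted p = 0.0161). In GDel1 against WT 0 of these 20 passed. In GDel2 against GDel1 the assembly factors had 4 higher and 1 lower, and the trimming factors 3 higher and 1 lower. The Cajal body and cap factors had 0, and over all genes 14.8% were higher and 12.8% lower.

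Other structural RNAs of the same libraries were also higher in GDel1 than in WT by their median. Of 36 gene identifiers for 29 symbols 29 were tested, and all 29 were above 0 in GDel1 against WT (median 0.85). The identifiers of the Rnu3b symbols, copies of the U3 snoRNA, fall into sets with identical values, so they are not separate measurements. With identical values counted once, 23 remained, all above 0, with the same median and the same 3 calls in GDel1 against WT. Rn7s1, the RNA of the signal recognition particle, was at 3551 and 4690 CPM in GDel1 against 1797, 2081 and 1929 CPM in WT (1.09 ± 0.13, adjusted p = 0.0227). Rpph1, the RNA of ribonuclease P (0.82 ± 0.13, adjusted p = 0.0488), and the related Rprl3 (0.98 ± 0.13, adjusted p = 0.0327) passed too, while 0.162% of all genes were called higher. These calls depended on the method: 0 passed without a composition factor or without any 1 WT library, 15 with DESeq2 and 26 without a filter. In GDel2 against WT the median was 0.19 and Rprl3 alone passed (0.66 ± 0.13, adjusted p = 0.00618). In GDel2 against GDel1 6 fell and 0 rose, against 12.8% of all genes lower, with a median of -0.64, among them Rn7s1 (-0.87 ± 0.15, adjusted p = 0.00323) and Vaultrc5, the vault RNA, at 5.29 and 5.57 CPM in GDel2 against 15.7 and 37.5 CPM in GDel1 (-2.31 ± 0.43, adjusted p = 0.00896). Without GDel1 replicate 2, which leaves 1 GDel1 library, the Vaultrc5 difference was -1.53. Those of the others called were -0.97 (Rnu11), -0.69 (Rnu1b2), -0.67 (Rnu2-10), -0.66 (Rn7s1) and -0.44 (Rpph1). Vaultrc5 shared the excess in GDel1 replicate 2, whereas the abundant Rn7sk was at 31621 and 15346 CPM in GDel1, 18183 and 23694 CPM in GDel2, and 19278, 18736 and 20970 CPM in WT, high in replicate 1 and low in replicate 2 as Snora23 was.

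The spliced noncoding transcripts known as snoRNA hosts gave a mixed picture. Of 15 tested 0 passed in GDel1 against WT (median 0.35), though 3 were higher with DESeq2 and 8 higher and 1 lower without a filter. In GDel2 against WT Snhg11 (0.80 ± 0.09, adjusted p = 2.82e-04) and Snhg15 (0.39 ± 0.08, adjusted p = 0.00826) rose, and the median was 0.00. Over all genes 17.4% were called higher and 15.6% lower in that comparison. In GDel2 against GDel1 these 2 rose and 4 fell, namely Gas5, Snhg5, Snhg8 and Dancr, by 0.32 to 0.53 on the log2 scale, while without GDel1 replicate 2 the list had 2 higher and 1 lower call. Between GDel2 and GDel1 14.8% of all genes were called higher and 12.8% lower. Gas5, a long-known host of C/D snoRNAs, was at 141 and 152 CPM in GDel2 against 170 and 196 CPM in GDel1 (-0.32 ± 0.10, adjusted p = 0.0452). The only tested transcript of the list that is not a known snoRNA host, Mir17hg, differed in GDel2 against GDel1 by 0.03 ± 0.10 (adjusted p = 0.867).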

How the data were processed

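Total RNA depleted of ribosomal RNA was made into strand-marked libraries, per the labels' protocols. The authors deposited 1 RSEM table per library with expected counts per gene, not scaled for depth, TPM and FPKM scaled by the authors over effective length, and lengths in bases. The deposited FPKM values were not used. The submitters' processing notes name STAR, RSEM, Bowtie2, deepTools, HiC-Pro and the mm10 build. No source used here gives the strand setting of the counting or the release of the annotation. Total expected counts were 12316853 to 18762704 per library.

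Symbols came from a table of gene names (55141 of 55487 genes matched), and positions, hosts and sequences from RefSeq tables of GRCm38.p6 (51 of 52 members). A host is a gene whose span contains the member. Expected counts were rounded, and genes were kept by filterByExpr with 3 groups (minimum count 10, minimum total 15), leaving 15421. Tests used edgeR 4.0.16 in R 4.3.3, with TMM scaling, the robust quasi-likelihood F test and Benjamini-Hochberg adjustment over all genes tested, at a threshold of 0.05. All adjusted p-values are from edgeR unless DESeq2 (1.42.0) is named. One fit with 3 groups gave 3 contrasts, and a second fit with 2 groups compared the 4 deletion libraries with WT. Fold changes follow the first-named group over the second. The ratio of Snord22 has a 95% exact interval.

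Members, lists, tests and the rule for named genes were chosen with earlier results of these data known. The rule took the 6 most abundant C/D and H/ACA members, all Cajal body members, up to 6 called rises and falls per contrast, 3 genes on each side of the count minimum, the 3 of lowest p in the deletion group, the core proteins and the hosts of these members. Members named for sharing a host or for a chromosome, and other list genes, were picked after their values were seen. The fit was tested on simulated data. Replicate numbers were not shown to pair the samples. The other 59 of 66 samples were not analysed here.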

Additional observations from a re-analysis of the deposited data

Results flagged for a closer look

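GDel1 replicate 2 stood apart from the other 3 deletion libraries for 4 of 24 named members, by a gap to the nearest library that took most of the range of the group of 4. The gap was 0.971 of the range for Snord22 and 0.855 for Snora28 and 0.852 for Snora34, where it was the highest, and 0.862 for Snora81, where it was the lowest. Snord22 and Snora34 entered the set only through this library, so a high value there follows from the choice of members. All 4 gaps exceed the 95% limit of Dixon's test for 4 values. That limit assumes 1 population, whereas 27.7% of all genes were called between GDel2 and GDel1. Snora28 was itself named for its called fall in GDel2 against GDel1. Members share libraries and were not picked at random, so the number flagged cannot be set against chance. For Snora34, not tested for low counts, the values were 0.322 and 2.6 CPM in GDel1, 0.631 and 0.289 CPM in GDel2, and 0.147, 0.0619 and 0.368 CPM in WT.

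Levels in the libraries of the 2 deletion names differed for 12 members by the test of GDel2 against GDel1 (edgeR, adjusted p under 0.05). The log2 differences were -1.31 for Snord17, -1.13 for Snord15a, -1.79 for Snord15b, -0.53 for Scarna2, -0.98 for Scarna6, -0.86 for Scarna13, -0.71 for Snora73a, -0.81 for Snora73b, -1.58 for Snora74a, -0.76 for Snora52, -3.21 for Snora28 and -2.40 for Snora70. All 12 were lower in GDel2. Snora70 is 1 of the 6 members admitted through GDel1 replicate 2, and without these 6 the counts were 0 higher and 11 lower of 46 tested, with a median of -0.42.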

How the results depend on the processing

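The median log2 fold change of members kept its sign under every alternative run for GDel1 against WT, GDel2 against GDel1 and the deletion group against WT. For GDel2 against WT (0.08) it ranged from -0.09 to 0.20 with a library left out, being -0.0755 without GDel2 replicate 2 and -0.093 without WT replicate 1, and it was -0.10 without both WT replicate 1 and GDel1 replicate 2, an alternative chosen after seeing the data. Counts of members called moved more. For GDel1 against WT (1 called) the count was 0 without a composition factor, with a minimum count of 30 or without both libraries, 13 with DESeq2, 22 without a filter and 0 to 16 with a library left out. For GDel2 against WT (1 called) it was 9 without a filter, 3 without both libraries and 0 to 4 with a library left out. For GDel2 against GDel1 (12 called) it was 22 without a filter and 5 to 22 with a library left out. For the deletion group against WT (0 called) DESeq2 called 2. The cause of these differences was not tested. On the TPM scale, log2(TPM + 1) over 43 members, the medians were 0.28, 0.09, -0.33 and 0.16 in the same order of comparisons, beside medians over all genes of -0.30, -0.05, 0.24 and -0.16. With mitochondrially encoded genes left out of the total, C/D and H/ACA members held 0.0153% and 0.155% of counts in GDel2.

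Replicate numbers were not shown to pair the samples: deviations of same-numbered libraries correlated at -0.28 between GDel1 and GDel2, 0.11 between GDel1 and WT replicate 1 and -0.10 between GDel2 and WT replicate 1. With the replicate block, on libraries numbered 1 and 2, the counts of members called were 0 for GDel1 against WT, 2 for GDel2 against WT, 9 for GDel2 against GDel1 and 0 for the deletion group. With the numbers of GDel1 and GDel2 crossed, 13 were called in GDel2 against GDel1. Depth limits the rarer members, of which 2 of 52 had too few counts to be tested.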
